A study of Mus musculus with 28 samples.

Results

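The 28 genes described here make cholesterol and fatty acids or control that synthesis. They were taken by name from 23478 gene rows in each count table and fall into a sterol branch of 17 genes and a fatty acid branch of 11. All 28 were found, Msmo1 under its older symbol Sc4mol, and all 28 passed the filter on low counts in both lines. The cells came from mouse lung, taken by a sort for EPCAM after depletion with antibodies to CD31, CD45, CD16/32, CD90.2, CD271 and Ter119, and are labelled as alveolar type 2 (AT2) cells. In the Yap active line both Hippo kinase genes, Stk3 and Stk4, were floxed and the Sftpc promoter drove CreERT2 (Stk3flox/flox/Stk4flox/flox SftpcCreert2). Its controls carried the same floxed alleles without the Cre driver. In the Yap deleted line Yap was floxed (Yapflox/flox SftpcCreert2), and its controls were Yapflox/flox without the driver. All mice were induced at postnatal day 3 and collected at postnatal day 14, so the controls share the floxed alleles and the induction, but not the Cre. RNA-seq covered 6 Yap active libraries with 4 controls and 5 Yap deleted libraries with 4 controls (19 in all), and ATAC-seq covered 3, 3, 2 and 1 libraries in the same order. Nothing in the labels ties a library to a single mouse, so p-values cover only the spread between these libraries, which may be technical.

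Cholesterol and fatty acids are both built from acetyl-CoA, and the transcription factors SREBP2 and SREBP1, made from Srebf2 and Srebf1, switch on the genes of both routes. When membrane sterol is high, INSIG proteins hold the SREBP precursors in the endoplasmic reticulum, and when it is low the precursors are cut and their free ends enter the nucleus. AT2 cells make and secrete surfactant, a mixture rich in saturated phosphatidylcholine and cholesterol, and are known for high lipid synthesis. Yap is a co-activator restrained by the Hippo kinases and acts on DNA mainly through TEAD factors.

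Promoter sequence was available for 21 of the 28 genes, in 26 windows of 250 bases ending just before a RefSeq start site (GRCm38.p6, the assembly of build mm10). Windows were searched on both strands for the core of a sterol response element (TCACNCCAC), the CCAAT box bound by NF-Y, the GC box bound by SP1 (GGGCGG) and a TEAD motif (GGAATG). The CCAAT box was present in all 13 sterol genes with a window and in 4 of 8 fatty acid genes, against 33.8% of 32851 windows of all genes. The GC box was present in 13 of 13 and 5 of 8, against 32.7%. These member counts are per gene, with any of its windows sufficient, while the shares of all genes are per window. Counted per window, 18 of 26 member windows held a CCAAT box and 21 of 26 a GC box. The sterol response element core was found in Hmgcs1 only, against 1.05% of all windows, and the TEAD motif in Acss2 only, against 12.6%. Other spellings of these elements were not searched. In the window of 100 bases before the start, 11 of 13 sterol genes still held a CCAAT box, against 18.9% of all windows. For the GC box it was 7 of 13, against 24.7%. Per window of all members these were 15 of 26 and 13 of 26. The sterol response element core was in none of these shorter windows, against 0.423% of all, since that of Hmgcs1 lies farther out.

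The promoters of 4 members are shown in lower case, 5′ to 3′ on the strand of the gene. Hmgcs1 is shown because it held the sterol response element core and had the smallest p in the difference between the lines. Cyp51, Nsdhl and Elovl1 are shown because a region listed as opened in the Yap active line covered their start. Such a region also covered 1 window of Srebf1, at an upstream RefSeq start, and that window is not shown. Capitals mark CCAAT boxes (CCAAT, or ATTGG where the box reads on the other strand) and, in Hmgcs1 alone, the sterol response element core.
Hmgcs1, chr13:119690101-119690350, plus strand: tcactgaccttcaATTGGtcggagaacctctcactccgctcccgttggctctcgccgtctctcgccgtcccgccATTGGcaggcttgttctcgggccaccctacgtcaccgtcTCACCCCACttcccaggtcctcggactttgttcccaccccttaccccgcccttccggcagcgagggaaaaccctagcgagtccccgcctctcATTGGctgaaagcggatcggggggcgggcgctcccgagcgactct
Cyp51, chr5:4104698-4104947, minus strand: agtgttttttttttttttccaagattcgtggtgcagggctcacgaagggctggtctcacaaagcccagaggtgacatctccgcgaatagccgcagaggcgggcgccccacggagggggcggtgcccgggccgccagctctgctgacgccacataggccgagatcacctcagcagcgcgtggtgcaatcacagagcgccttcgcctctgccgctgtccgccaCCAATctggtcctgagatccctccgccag
Nsdhl, chrX:72918271-72918520, plus strand: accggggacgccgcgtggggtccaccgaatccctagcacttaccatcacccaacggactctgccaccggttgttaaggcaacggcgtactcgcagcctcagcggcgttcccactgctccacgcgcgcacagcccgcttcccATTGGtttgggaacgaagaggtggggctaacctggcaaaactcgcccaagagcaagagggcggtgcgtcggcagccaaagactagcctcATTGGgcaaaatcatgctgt
Elovl1, chr4:118427843-118428092, plus strand: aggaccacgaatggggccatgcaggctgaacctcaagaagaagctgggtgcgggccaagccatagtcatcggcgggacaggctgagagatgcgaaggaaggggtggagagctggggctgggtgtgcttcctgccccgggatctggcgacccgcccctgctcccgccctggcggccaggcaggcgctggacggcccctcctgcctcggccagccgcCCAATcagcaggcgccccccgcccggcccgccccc
In Hmgcs1 the sterol response element core began 137 bases before the start and CCAAT boxes began 237, 176 and 45 bases before it. Cyp51 had 1 CCAAT box, 29 bases before the start, and Elovl1 had 1, at 35 bases. Nsdhl had a pair, at 109 and 20 bases. GC boxes, not capitalised, numbered 2 in Hmgcs1, 1 each in Cyp51 and Nsdhl and 5 in Elovl1. A match of letters is a description and not a measured binding site.

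Levels are given as CPM, the count of a gene relative to a fixed total, on TMM-scaled library sizes, and libraries held 31.9 to 43.5 M counts. AT2 markers summed to 32945 to 153702 CPM per library, and Sftpc itself lay between 2064 and 83336 CPM. Libraries within each table fell on either side of a wide gap in the first principal component of all genes. In the Yap deleted table (61% of variance) controls 1 and 2, here called set B, stood apart from the other 7 libraries. Those controls held 3038 and 2590 CPM of 15 summed endothelial markers, with Pecam1 at 322 and 245 CPM, against 230 to 325 CPM in the other 7, where Esam was the most abundant of them and Emcn was at 0 in deleted library 3. Their leukocyte markers, 15 without Lyz2, which AT2 cells also express, summed to 411 to 1794 CPM against 63.4 to 311 CPM. In the Yap active table (67% of variance) set A held active libraries 2 to 6 and control 4, and set B held the library labelled active 1 and controls 1 to 3. Epithelial markers summed to 7775 to 9067 CPM in set A of that table and to 4307 to 5974 CPM in set B, so set and group largely coincide. Esr1, part of which CreERT2 carries, ran from 211 to 335 CPM over set A of the Yap active group. It went against the label in 3 libraries: 1.97 CPM where the label says active 1, 160 CPM where it says active control 2 and 87.1 CPM where it says deleted control 2. The targeted genes differed between libraries in part against the labels too. Stk3 was at 49.5 CPM in the library labelled active 1, next to controls 1 to 3 (50.2 to 54.6 CPM), and at 34.0 CPM in the one labelled control 4, among active libraries 2 to 6 (30.6 to 35.4 CPM). Stk4 reached 125 CPM in the library labelled active 1, above all controls. In the library labelled control 4 it was at 120 CPM, the highest control, against 78.5 to 94.1 CPM in active libraries 2 to 6. In the deleted table, where Stk3 was not targeted, Stk3 was at 37.5 to 40.5 CPM in set B. In set A of that table it was at 19.8 to 27.0 CPM. Yap1 was at 142 CPM in deleted library 2, above the 119 CPM of the library labelled deleted control 2, and otherwise at 78.3 to 102 CPM with Yap deleted and at 168 to 215 CPM in the controls. Directions below follow the labels in these libraries. In sorted bulk cells, fewer cells of a type and less RNA per cell cannot be told apart.

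With Yap deleted, every sterol branch gene had a higher fitted level than in the controls, at a median log2 fold change of 0.61, and 9 of 11 fatty acid branch genes did, at a median of 0.57. Over all 15818 genes tested the median was 0.01, and 51.0% were higher. No member passed an adjusted p of 0.05 (edgeR quasi-likelihood test, members from 0.145), and 1 gene in all did (0.00632%). At an unadjusted p under 0.05, 10 sterol and 4 fatty acid genes were higher and no member was lower, against 6.13% of all genes higher and 9.18% lower. DESeq2 called Elovl1 (log2 fold change 1.59, adjusted p = 7.9e-07) and Dhcr7 (0.74, adjusted p = 0.0251), and it called 0.962% of all genes higher. When each library was scaled to its epithelial markers instead, 14 of 17 sterol genes and 6 of 11 fatty acid genes were higher (medians 0.24 and 0.12), while 13.1% of all genes were, and the median of all genes moved to −0.55.

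The regulators showed how far the controls differed among themselves. Srebf2, which encodes the main activator of the sterol genes, was at 452, 434, 496, 656 and 697 CPM in Yap deleted libraries 1 to 5 and at 215, 194, 422 and 720 CPM in controls 1 to 4. Control 4 was thus above every deleted library, and the log2 fold change was 0.50 ± 0.39 (SE, adjusted p = 0.532). Srebf1, the gene of the factor that favours fatty acid synthesis, was at 558, 565, 533, 645 and 639 CPM against 223, 198, 447 and 706 CPM (0.58 ± 0.35, adjusted p = 0.442). Insig1, the sterol-regulated retention factor, was at 265, 241, 194, 229 and 241 CPM against 91.7, 66.1, 183 and 284 CPM (0.58 ± 0.38, adjusted p = 0.468). All 3 regulators were lowest in controls 1 and 2, and control 4 was the highest library for each. Without controls 1 and 2 their log2 fold changes were −0.09 for Srebf2, −0.0035 for Srebf1 and −0.03 for Insig1.

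**Figure D1:**
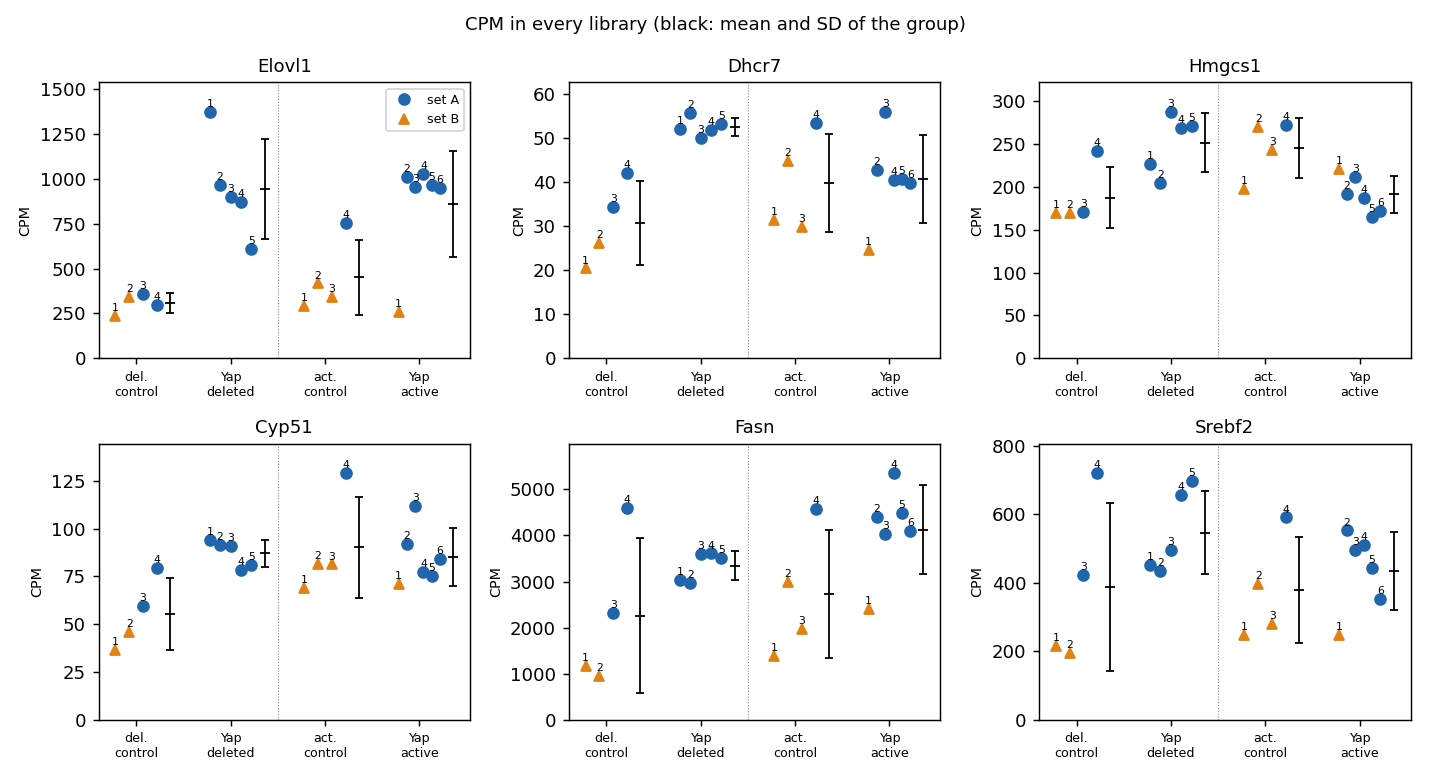
CPM of Elovl1, Dhcr7, Hmgcs1, Cyp51, Fasn and Srebf2 in each of the 19 RNA libraries, by group (horizontal axis) on a linear vertical axis from 0; digits are replicate numbers, circles library set A, triangles set B, and the black bar the group mean with its SD. Elovl1 lies at 608 to 1372 CPM in Yap deleted libraries and at 235 to 356 CPM in their controls, while Srebf2 overlaps between all groups.

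In the sterol branch the clearest separation was in Dhcr7, the reductase that finishes cholesterol synthesis. It was at 52.0, 55.7, 50.0, 51.9 and 53.1 CPM in the deleted libraries and at 20.4, 26.1, 34.4 and 42.1 CPM in controls 1 to 4, with no overlap (log2 fold change 0.77 ± 0.19, adjusted p = 0.247). Its level varied less among the deleted libraries (52.5 ± 2.11, SD, n = 5) than among the controls (30.8 ± 9.51, SD, n = 4). Mvd, which makes isopentenyl diphosphate, did not overlap either, though only just: the lowest deleted library had 40.5 CPM and the highest control 40.4 CPM (0.76 ± 0.30, adjusted p = 0.302). With Elovl1 below, these 3 of 28 members were the ones whose deleted libraries all lay above all controls, a separation seen in 2.64% of all genes.

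Cyp51 removes the methyl group at carbon 14 of lanosterol and Msmo1 those at carbon 4. Cyp51 was at 94.2, 91.3, 91.2, 78.2 and 80.8 CPM with Yap deleted and at 36.4, 46.0, 59.7 and 79.6 CPM in the controls (0.65 ± 0.21, adjusted p = 0.255). Msmo1 was at 67.7, 58.1, 66.7, 59.5 and 62.1 CPM against 33.0, 34.7, 46.9 and 62.7 CPM (0.50 ± 0.19, adjusted p = 0.280). In both genes only control 4 reached into the range of the deleted libraries. Hmgcs1, the synthase that feeds HMG-CoA to the pathway, was at 226, 204, 287, 268 and 271 CPM against 169, 169, 170 and 241 CPM (0.42 ± 0.16, adjusted p = 0.284), and its log2 fold change was −0.08 under epithelial scaling, where the median of all genes was −0.55.

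The remaining sterol genes followed with wide errors. The mevalonate kinase gene Mvk, the isomerase gene Idi1 and the farnesyl diphosphate synthase gene Fdps had log2 fold changes of 0.76 ± 0.33, 0.59 ± 0.24 and 0.90 ± 0.42. Fdft1 and Sqle, which make and oxidise squalene, were both at 0.64, and Lss, which closes the ring, was at 0.72 ± 0.39. Nsdhl and Ebp, which act between lanosterol and cholesterol, were at 0.61 ± 0.24 and 0.54 ± 0.23, and the sterol carrier gene Stard4 was at 0.36 ± 0.15. Sc5d, the desaturase just before Dhcr7, was the smallest at 0.13 ± 0.14. Adjusted p over these genes ran within 0.299 to 0.648.

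Leaving out controls 1 and 2 reduced the sterol median to 0.19, with 15 of 17 genes still higher against 50.9% of all genes. Hmgcs1 was then at 0.26, Mvk at 0.19, Mvd at 0.24, Idi1 at 0.23, Fdps at 0.22, Cyp51 at 0.29, Msmo1 at 0.17, Nsdhl at 0.21 and Stard4 at 0.19, while Ebp and Sc5d were at 0.13. Squalene and ring closure showed least, with Fdft1 at 0.01, Sqle at 0.03 and Lss at 0.07. One sterol gene then had an unadjusted p under 0.05, Dhcr7 (0.43 ± 0.10, adjusted p = 0.491), against 2.48% of all genes. Controls 1 and 2 lay below all other 7 libraries for 15 of 17 sterol and 8 of 11 fatty acid genes. These controls were themselves set apart by the first principal component of all genes, and the share of all genes with this order was not counted. Without controls 1 and 2 the deleted libraries all lay above the remaining controls 3 and 4 for Mvd, Dhcr7 and Elovl1, and all below them for no member. For neither order was the share over all genes counted, so the member counts have no baseline. AT2 markers had a median log2 fold change of 0.64 with all libraries and 0.22 without controls 1 and 2, and epithelial markers 0.32 and −0.23. The part of cell makeup in the sterol values was not tested.

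**Figure D2:**
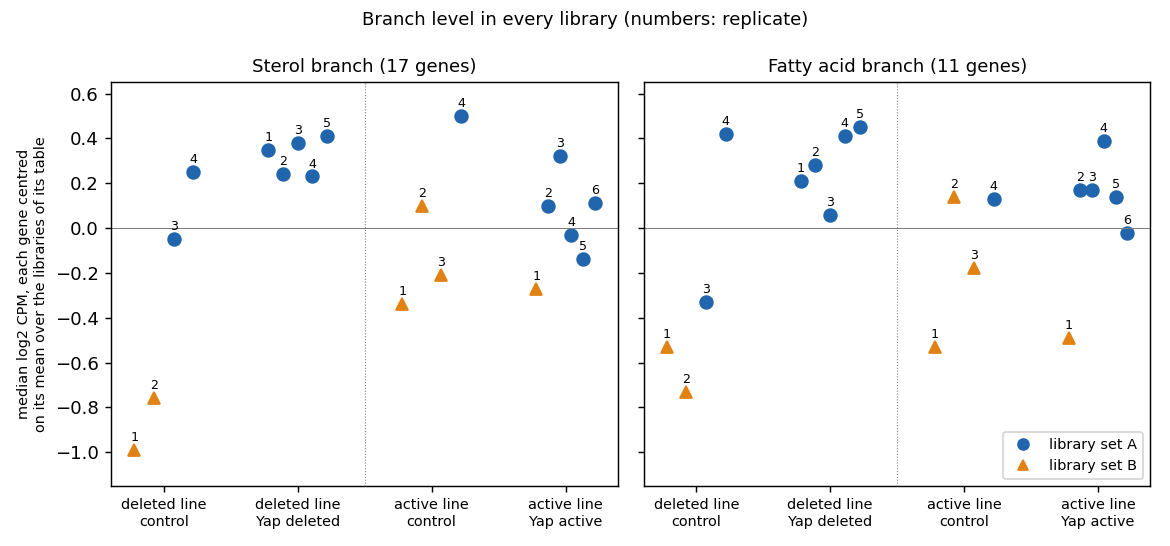
Median level of the sterol branch (left, 17 genes) and the fatty acid branch (right, 11 genes) in each library, as log2 CPM after centring each gene on its mean over the libraries of its own table (vertical axis), by group (horizontal axis). Controls 1 and 2 of the deleted line sit at −0.99 and −0.76 for sterol genes, and the other 7 libraries of that table between −0.05 and 0.41.

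In the fatty acid branch one gene stood out in the deleted line. Elovl1, the elongase that carries saturated chains to very long lengths, was at 1372, 967, 896, 870 and 608 CPM with Yap deleted and at 235, 343, 356 and 295 CPM in the controls. The lowest deleted library was above the highest control, and the log2 fold change was 1.62 ± 0.25 (3.07-fold, adjusted p = 0.145). Controls 1 and 2 did not stand apart for this gene, and without them the value was 1.50 ± 0.32 (adjusted p = 0.431). Over 17 alternative settings it stayed between 1.02 and 1.71 with adjusted p from 7.9e-07 to 0.460, and DESeq2 was the setting that called it.

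Fads2, the desaturase that starts the route to long polyunsaturated chains, was at 52.3, 75.0, 48.5, 43.3 and 64.2 CPM against 34.7, 31.8, 37.1 and 46.4 CPM (0.60 ± 0.18, adjusted p = 0.248). Acly, which releases acetyl-CoA from citrate, was at 538, 507, 510, 615 and 678 CPM against 294, 277, 368 and 566 CPM (0.60 ± 0.23, adjusted p = 0.282). Deleted library 4 for Fads2, and deleted libraries 1 to 3 for Acly, lay below the highest control, so both genes overlapped. Scd1, the desaturase that makes oleate, had 0.80 ± 0.34 (adjusted p = 0.320), though reads of Scd1 to Scd4, close paralogs, may be divided among them in the counting. Fasn, the synthase itself, was at 0.57 ± 0.43, with controls spread from 952 to 4605 CPM around deleted libraries at 2976 to 3609 CPM.

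The others gave no clear direction. The acetyl-CoA carboxylase gene Acaca had 0.36 ± 0.29, Fads1 0.30 ± 0.17, Scd2 0.17 ± 0.27, the acetyl-CoA synthetase gene Acss2 −0.15 ± 0.31 and the elongase gene Elovl6 −0.18 ± 0.53. Without controls 1 and 2 the fatty acid median was 0.05, with 6 of 11 genes higher, against 50.9% of all genes. Elovl1 was the 1 gene of the branch with an unadjusted p under 0.05, against 2.48% of all genes higher at that p. Fads2 was then at 0.41 ± 0.22, Acly at 0.26 ± 0.20, Scd1 at 0.37 ± 0.31 and Elovl6 at 0.69 ± 0.61. Fads1 was at 0.05 and Acaca at −0.01, while Fasn (−0.08), Scd2 (−0.27) and Acss2 (−0.47) had values below 0. Genes outside the 28 that belong to the same routes were counted from lists. With all libraries 51.0% of all genes were higher. At an unadjusted p under 0.05, 6.13% of all genes were higher and 9.18% lower. Of 11 other sterol synthesis genes 9 were higher, 3 at an unadjusted p under 0.05. Of 17 sterol sensing and uptake genes 13 were higher, 6 at that p. Of 10 genes of the liver X receptor and sterol export 5 were lower, 3 at that p, including the cholesterol exporter Abca1 (−0.53 ± 0.21, adjusted p = 0.304). Of 27 other fatty acid synthesis genes 23 were higher, 8 at that p, and 1 was lower at that p. Without controls 1 and 2 these became 0 of 11, 1 of 18, and 2 of 27 higher at that p, and 1 of 10 lower. In that fit 2.48% of all genes were higher at that p, and 597 of 16073 genes were lower. Under epithelial scaling 2 of 11, 6 of 17 and 12 of 27 were higher and all 10 export genes lower, where 13.1% of all genes were higher.

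**Figure D3:**
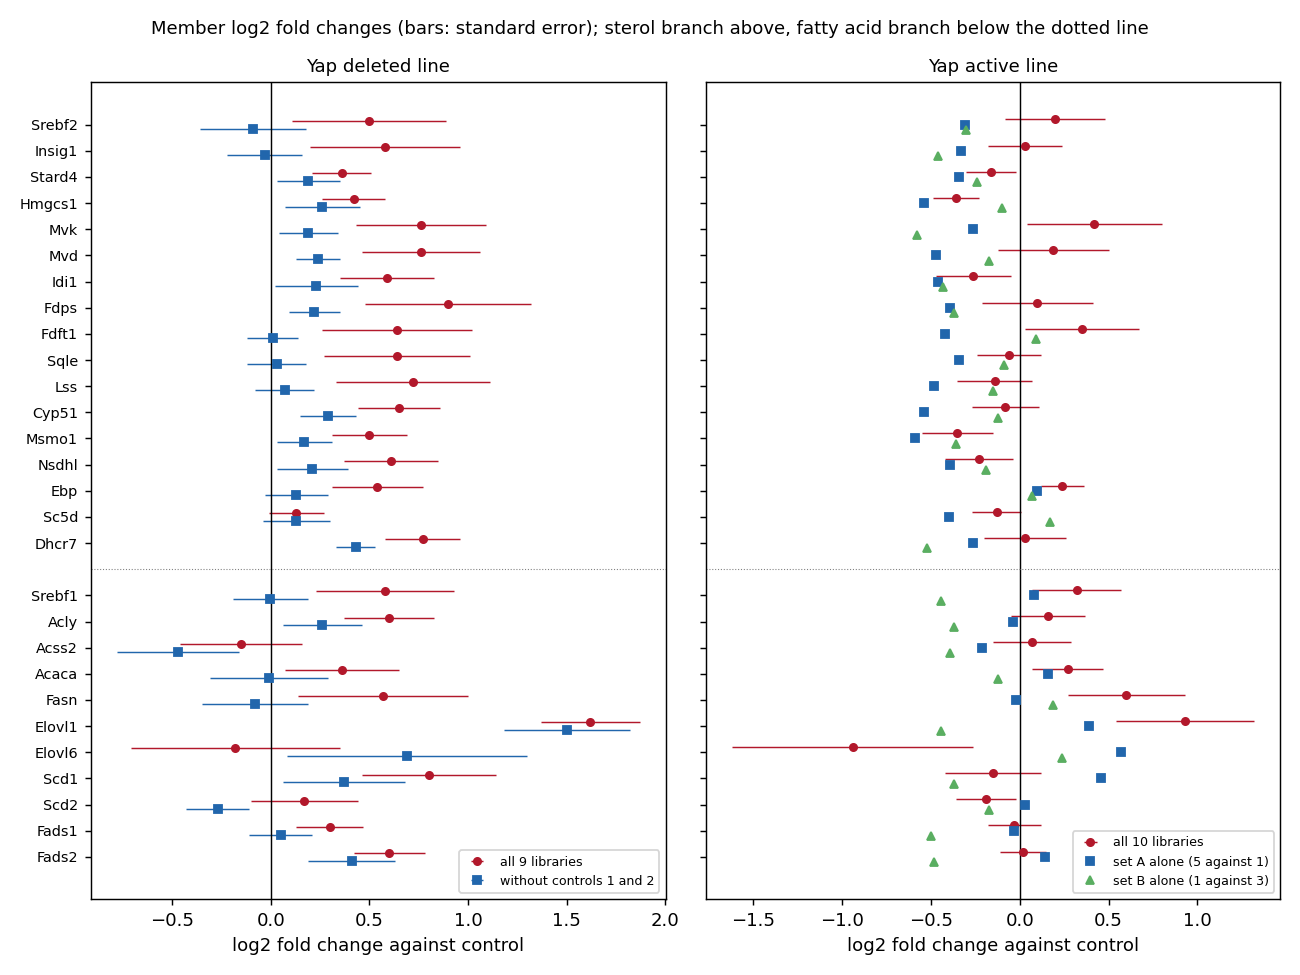
Log2 fold change of each member against control (horizontal axis, bars are the SE), sterol branch above and fatty acid branch below the dotted line; left, Yap deleted line with all 9 libraries and without controls 1 and 2; right, Yap active line with all 10 libraries and within each library set (no bars). Elovl1 stays at 1.50 in the deleted line without those controls, while in the active line it is 0.93 over all libraries, 0.39 in set A and −0.44 in set B.

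With Yap active, neither branch shifted when all libraries were compared. The sterol median was −0.06, with 8 of 17 genes higher, and the fatty acid median 0.07, with 7 of 11 higher, against a median of −0.01 and 49.4% higher over 15685 genes. No member passed the adjusted test (lowest adjusted p 0.366), nor did any gene (0%), while DESeq2 called 11 genes and no member. At an unadjusted p under 0.05, Elovl1 was higher, against 6.65% of all genes, and Hmgcs1 lower, against 5.98%. No member's active libraries all lay above or all below the controls, which 0.465% and 0.478% of all genes did. Under epithelial scaling the medians were −0.57 and −0.47, where the median of all genes was −0.59. With all libraries the 19 AT2 markers were all higher (median 0.29), as were the 20 epithelial markers (0.53).

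Hmgcs1 was at 165 to 221 CPM in the 6 active libraries (median 189) and at 197, 270, 243 and 272 CPM in controls 1 to 4 (log2 fold change −0.36 ± 0.13, adjusted p = 0.366). The library labelled active 1 (221 CPM) and active library 3 (211 CPM) were above control 1, and the other 4 were below every control. It was lower in each set alone (−0.54 in set A, −0.10 in set B). Msmo1 was at 38.0 to 63.6 CPM (median 47.7) against 43.2, 73.2, 57.4 and 75.0 CPM (−0.35 ± 0.20, adjusted p = 0.367). Ebp, the isomerase of the late pathway, was at 34.1 to 47.3 CPM (median 40.3) against 29.9, 34.0, 34.2 and 39.5 CPM (0.24 ± 0.12, adjusted p = 0.366). In sets A and B Msmo1 was at −0.59 and −0.36 and Ebp at 0.10 and 0.07. Ebp was at −0.33 under epithelial scaling, where the median of all genes was −0.59.

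The regulators overlapped throughout. Srebf2 was at 249 to 553 CPM (median 470) against 248, 397, 281 and 591 CPM (0.20 ± 0.28), and Insig1 at 104 to 196 CPM (median 183) against 129, 171, 130 and 231 CPM (0.03 ± 0.21). Srebf1 was at 285 to 660 CPM (median 589) against 310, 479, 378 and 567 CPM (0.32 ± 0.25, adjusted p = 0.460). The library labelled active 1 was the lowest of its group for all 3 and lay near controls 1 and 3, which belong to its own set.

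Within each library set most sterol genes were lower in the active libraries. In set A, 16 of 17 were lower in the 5 active libraries than in control 4 (median −0.39), against 44.0% of all genes, and in set B 14 of 17 were lower in the library labelled active 1 than in controls 1 to 3 (median −0.19), against 53.7%. Control 4 lay above all 5 active libraries of its set for 14 sterol genes, and for Acss2 alone in the fatty acid branch. The share of all genes with that order was not counted, so these member counts have no baseline. Each set has 1 library on one side, so these values rest on the libraries labelled control 4 and active 1, whose Stk3 levels went against their labels. Stk4 and Esr1 went against the label in active 1 but not in control 4 (Stk4 120 CPM, Esr1 0.964 CPM). With the set as a term in the model, 16 of 17 sterol genes were lower (median −0.34, 5 at an unadjusted p under 0.05 and none at an adjusted p under 0.05). Over all genes the median was then 0.00070, with 49.8% lower and 0.937% lower at that p. In that fit 17 of 19 AT2 markers were lower (median −0.14), while 14 of 15 leukocyte markers were higher (median 0.86). In set B 15 of 19 AT2 markers were lower (median −0.34) and 15 of 16 leukocyte markers higher (median 1.01), and in set A the AT2 median was 0.01 and the leukocyte median 0.58. The part of cell makeup in these values was not tested.

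In the fatty acid branch 7 of 11 genes were higher in set A, 9 of 11 lower in set B and 7 of 11 lower with the set as a term. Over all genes, 8916 of 15913 were higher in set A, 53.7% were lower in set B and 49.8% were lower with the set term. The median was 0.08 in set A, −0.37 in set B and −0.08 with the set as a term. Elovl1 was at 1011, 953, 1024, 964 and 950 CPM in active libraries 2 to 6, at 257 CPM in the library labelled active 1, and at 291, 417, 343 and 754 CPM in controls 1 to 4. The 5 libraries of set A were above all controls, control 4 was the highest control, and the library labelled active 1 was the lowest of all 10. The log2 fold change was 0.93 ± 0.39 (adjusted p = 0.366), 0.39 ± 0.15 in set A, −0.44 ± 0.27 in set B and −0.01 ± 0.20 with the set as a term. Leaving out the libraries labelled active 1 and control 2, whose Esr1 goes against the label, gave 1.08 ± 0.30 (adjusted p = 0.122).

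Fasn was at 2402 to 5349 CPM in active libraries (median 4246) and at 1385, 2993, 1980 and 4574 CPM in controls (0.60 ± 0.33, adjusted p = 0.371), and at −0.02 in set A alone. Elovl6, which extends palmitate to stearate, was sparse at 1.11 to 11.6 CPM (median 2.42) against 12.6, 6.44, 10.6 and 1.76 CPM. It was high in set B and low in set A whatever the label, so its log2 fold change of −0.94 ± 0.68 became 0.39 ± 0.49 with the set as a term. Set A lay wholly above set B for Mvk, Mvd, Fdft1, Ebp, Srebf1, Fasn and Elovl1. The sets were drawn from a gap in all genes, and the share of all genes split this way was not counted. Of the members not yet given, Mvk (0.42), Fdft1 (0.35), Acaca (0.27), Mvd (0.19), Acly (0.16), Fdps (0.10), Acss2 (0.07), Dhcr7 (0.03) and Fads2 (0.02) had log2 fold changes above 0. Idi1 (−0.26), Nsdhl (−0.23), Scd2 (−0.19), Stard4 (−0.16), Scd1 (−0.15), Lss (−0.14), Sc5d (−0.13), Cyp51 (−0.08), Sqle (−0.06) and Fads1 (−0.03) had values below 0.

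Genes of the same routes outside the 28 were counted with all libraries, where 49.4% of all genes were higher. At an unadjusted p under 0.05, 6.65% of all genes were higher and 5.98% lower. Of 11 other sterol synthesis genes 6 were higher and 2 were lower at an unadjusted p under 0.05. Of 17 sensing and uptake genes 14 were higher and of 10 liver X receptor and export genes 5 were, none of them at that p. Of 27 other fatty acid synthesis genes 15 were higher, with 1 higher and 2 lower at that p. With the set as a term all 11 other sterol synthesis genes were lower (median −0.22), as were 13 of 17 sensing and uptake genes (−0.05) and 17 of 27 other fatty acid genes (−0.03), while 6 of 10 export genes were higher. In that fit 49.8% of all genes were lower. Under epithelial scaling 1 gene of these 4 lists was higher, where 8.07% of all genes were.

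The change in the active line was set against that in the deleted line in one model. All 17 sterol genes had a lower change in the active line, at a median difference of −0.70 on the log2 scale, and 9 of 11 fatty acid genes did, at −0.37. Over 16308 genes the median was 0.02 and 52.3% were above 0. Under epithelial scaling the branch medians were −0.82 and −0.57. No member and no gene (0%) passed the adjusted test (members from 0.676), and DESeq2 called 17 genes and no member. At an unadjusted p under 0.05, 7 sterol and 2 fatty acid genes were lower, against 1.91% of all genes, and no member was higher, against 4.56%. Marker lists differed between the lines as well. AT2 markers were below 0 in 16 of 19 (median −0.27), while all 15 endothelial (1.93), all 16 leukocyte (2.54) and all 15 alveolar type 1 (AT1) markers (0.84) were above 0. Their part in the difference was not tested.

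Hmgcs1 had the smallest p among members, with a difference of −0.79 ± 0.20 (adjusted p = 0.676). It is the gene whose promoter, shown above, held the sterol response element core. Msmo1 followed at −0.86 ± 0.28 (adjusted p = 0.732) and Nsdhl at −0.84 ± 0.31 (adjusted p = 0.732). Nsdhl, the dehydrogenase that acts with Msmo1 at carbon 4, was at 33.1, 32.2, 35.6, 29.3 and 39.3 CPM in the deleted libraries and 15.1, 16.2, 23.2 and 34.3 CPM in their controls. In the active line it was at 24.2 to 32.6 CPM (median 26.9) against 23.8, 44.8, 25.1 and 37.2 CPM. In the fatty acid branch Scd1 (−0.95 ± 0.41) and Fads2 (−0.58 ± 0.22) were the pair at an unadjusted p under 0.05, while Fasn was at 0.03 ± 0.55 and Acss2 at 0.22 ± 0.39.

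Without deleted controls 1 and 2 the sterol difference shrank to a median of −0.24, with 12 of 17 genes below 0, against 53.0% of all genes, and 1 at an unadjusted p under 0.05, Hmgcs1 (−0.65 ± 0.22), against 3.99% lower at that p. In that fit the AT2 median was 0.15, the epithelial median 0.77 and the endothelial median −1.22. With those controls left out and the library set as a term for the active line, all 17 were below 0 (median −0.53, 7 at that p), against 54.0% of all genes below 0 and 2.30% at that p, and the fatty acid median was −0.33 with 7 of 11 below 0. There 17 of 19 AT2 markers were below 0 (median −0.43), while the leukocyte median was 1.66 and the AT1 median 1.50. In that fit Elovl1 was at −1.52 ± 0.36 (adjusted p = 0.604), against −0.69 ± 0.47 with all libraries. The sterol median was thus below 0 in all 3 fits, while its size depended on which libraries and terms entered.

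**Figure D4:**
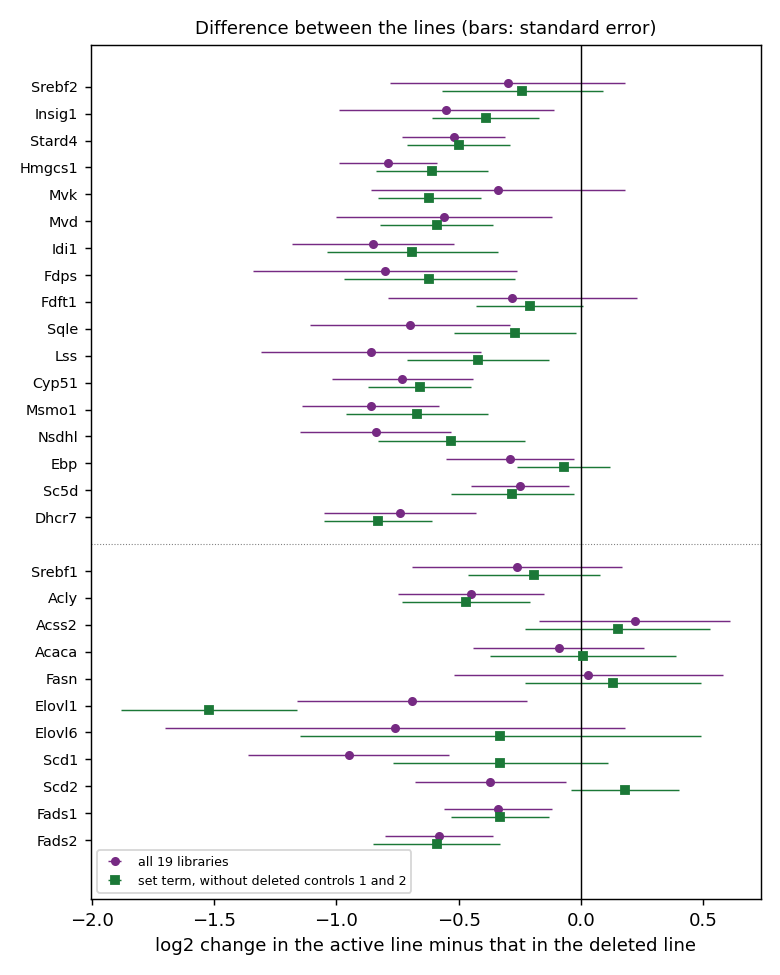
Difference of the log2 changes, Yap active minus Yap deleted, for each member (horizontal axis, bars are the SE), sterol branch above and fatty acid branch below the dotted line, with all 19 libraries (circles) and with a library set term and without deleted controls 1 and 2 (squares). All 17 sterol genes lie below 0 in both fits, while Fasn and Acss2 lie above 0.

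The ATAC-seq data give regions of chromatin listed by the authors as opened or closed in each line, each with its nearest gene. Regions opened in the Yap active line named 6 of 28 members (21.4%), against 25.1% of the genes tested, and regions closed in it named 3 (10.7%), against 5.68%. No region opened or closed in the Yap deleted line named a member, in lists of 532 and 676 regions that named 2.44% and 2.93% of the genes tested. Regions within 1 kb of a start numbered 4 for the opened list (14.3% of members, 16.5% of tested genes) and 0 for the closed list (0.212% of tested genes).

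In the sterol branch an opened region covered the Cyp51 start (chr5:4103708-4105712), with a score of 112, rank 903 of 6017. Another covered the Nsdhl start (chrX:72918212-72919050, score 79.4, rank 1544), where the authors' annotation names the promoter of the neighbouring gene Cetn2, and both contain the promoter sequences shown above. A region in the first intron of Ebp (chrX:8192177-8193112) lay 868 bases from its start with a score of 30.4. In the fatty acid branch the region at Elovl1 (chr4:118427595-118429036) took in the shown promoter and the first intron, with a score of 71.3 and rank 1767. The region upstream of Srebf1 (chr11:60222088-60222974, score 16.5, rank 5420) covered 1 of its 3 RefSeq windows, and that upstream of Scd2 (chr19:44283582-44285126, score 101) lay at −9322 bases relative to the start. Of these 6 genes Elovl1 was the one with an unadjusted p under 0.05 in the active line, and Cyp51, Nsdhl and Scd2 had log2 fold changes below 0.

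The closed regions lay away from starts, as did most of that list, with 71 of 1392 regions within 1 kb of a start. The one nearest to Fdft1 (chr14:63182012-63182705, score 11.3) lay at −2780 bases relative to its start and is annotated to the end of the neighbouring gene Neil2. The one nearest to Fads2 (chr19:10113017-10113517, score 10.5) lay at −11764 bases, and the one nearest to Lss (chr10:76512006-76512659, score 10.5) at −19273 bases, in an intron of the neighbouring gene Mcm3ap. All 6 opened regions overlapped a peak in the first of the lists the authors named mst, as did 93.6% of all opened regions, and 3 of 6 did in the second (33.4%). None overlapped a peak in either list named wt. The closed regions nearest to Fads2 and Lss were 88.4% and 98.6% covered by peaks in the first wt list, and the one nearest to Fdft1 overlapped no peak in any of the 4 lists. No opened region was covered to 50% by peaks, the most being 34.2% for Nsdhl. The lists give no values per library, so region and RNA could not be compared across libraries.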

How the data were processed

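The authors deposited read counts per gene for each line, together with lists of ATAC-seq regions and broad-peak lists. Build mm10 and the tools HOMER, DESeq, Cufflinks, Bowtie2 and Trim Galore appear in the submitters' processing notes, without versions or roles; the counting program, its strand setting and its annotation are not given in the sources used here. Per the file headers, regions were annotated with HOMER annotatePeaks.pl and carry a score whose scale is not stated, so it only ranks regions within a list. The broad-peak lists deposited hold a fold enrichment (a ratio) and −log10 p and q values per peak; the fold was used only as the authors' own value and the −log10 columns were not needed.

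After TMM scaling and the filterByExpr filter, all genes were fitted in edgeR 4.0.16 (R 4.3.3) and tested by its two-sided robust quasi-likelihood test, with Benjamini-Hochberg adjustment over all genes tested. The change in one line against the other was an interaction term over all 19 libraries. The alternatives were RLE scaling, no filter, DESeq2 1.42.0, epithelial scaling, an Xist covariate, a replicate block, leaving out each library, and leaving out libraries whose Esr1 or endothelial markers stand apart. The Xist covariate split the libraries at 50 CPM. In the active line, libraries labelled active 1, 2, 3 and 6 and control 4 were above it. In the deleted line, deleted libraries 1 and 3 and control 3 were, so this class was spread unevenly over the groups. The library set term and the sets alone were chosen after seeing the data. Fits tested on simulated data recovered 88.0%, 83.8% and 30.0% of log2 fold changes of 1 (active, deleted, difference) and 100%, 100% and 98.0% of those of 2. False calls numbered 11, 11 and 4. The simulation gave every gene the same spread and held no library sets. These shares therefore check the code and do not give the recovery in the real libraries, where a gene not called may still have changed.

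Members and lists were chosen with earlier results of these data known. All 28 members are named. The regulators Srebf1, Srebf2 and Insig1 are given in every library or by range. So are, per line and branch, the 3 members with the smallest p, and the 3 with the smallest p of the difference. Mvd and the other members given were named beside these after their values were seen. Promoters came from RefSeq (GRCm38.p6), and 7 members without an entry are Fdft1, Stard4, Fdps, Scd1, Scd2, Fads1 and Sqle. Regions were matched to peaks at an overlap of at least 1 bp. Every per-sample column of the tables was used (0 left out).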

Additional observations from a re-analysis of the deposited data

Results flagged for a closer look

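A sample far from the others of its group was found in 2 of 56 groups of 4 to 6 libraries tested (14 members in 4 groups), and chance flags about 1 in 20. Elovl1 was at 257 CPM in the library labelled Yap active 1, where the other 5 active libraries held 950 to 1024 CPM (gap over range 0.903). In that library Esr1 was at 1.97 CPM, against 211 to 335 CPM in the other active libraries. Hmgcs1 was at 241 CPM in control 4 of the Yap deleted line, where the other 3 controls held 169 to 170 CPM (gap over range 0.985). Control 4 was also the highest control of that line for Srebf1, Srebf2, Insig1, Dhcr7, Cyp51 and Fasn.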

How the results depend on the processing

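For single members 389 values under the alternatives kept direction and side of the threshold, 26 changed sign and 2 were called by DESeq2 (Dhcr7 0.74 and Elovl1 1.59, deleted line). Genes called over the whole table were 11, 871 and 17 with DESeq2 (active, deleted, difference), 13 in the active line without the libraries whose Esr1 goes against the label, 2 in set A and 6 in set B. In the deleted line the replicate block, the Xist covariate and epithelial scaling each gave 0. Leaving out 1 library gave 0 to 2, 0 to 4 and 0 to 3 called genes; it was 2 in the active line without the libraries labelled active 1 or control 4, and 4 and 3 without deleted control 4, and 0 in the deleted line without control 3 or any one deleted library. Same-numbered libraries did not deviate together in every pair (correlations of −0.29 to 0.60). The library sets enter these correlations, so they cannot tell whether the numbers pair the libraries. The main fits were unpaired.

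Branch medians that moved by more than the spread between libraries were, in the active line, −0.57 (epithelial scaling), −0.34 (set term) and −0.39 (set A) for sterol genes and −0.47 (epithelial scaling) and −0.37 (set B) for fatty acid genes. In the deleted line they were 0.19 and 0.05 without controls 1 and 2, and 0.12 for fatty acid genes under epithelial scaling. Leaving out 1 library kept the sterol median within −0.14 to 0.15 (active), 0.42 to 0.93 (deleted) and −0.93 to −0.47 (difference).

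Values that changed sign in the active line were as follows. Under epithelial scaling the median of all genes was −0.59, and each of the values named for that scaling lay above it. Srebf1 was −0.25 under epithelial scaling, −0.18 with the set term and −0.44 in set B. Srebf2 was −0.31, −0.32 and −0.30 under the same and −0.31 in set A. Insig1 was −0.04 with the Xist covariate, −0.52 under epithelial scaling, −0.40 with the set term, −0.33 in set A, −0.46 in set B and −0.07 to 0.25 with 1 library left out. Ebp was −0.33 under epithelial scaling, Elovl1 −0.01 with the set term and −0.44 in set B, and Fasn −0.02 in set A. Elovl6 was 0.39 with the set term, 0.57 in set A and 0.24 in set B. In the deleted line without controls 1 and 2, Srebf1 was −0.0035, Srebf2 −0.09 and Insig1 −0.03. The cause was not tested. Members named by opened regions within 1 kb and in the higher-scoring 50% of the list numbered 3 (10.7%, against 12.7% of the genes tested).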
